A study of Mus musculus with 7 samples.

Results

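The cadherins outside the protocadherin clusters were examined in the prefrontal cortex (PFC) of female mice: the classical and other cadherins (Cdh), the non-clustered protocadherins (Pcdh with a plain number), the giant cadherins Fat and Dchs, and the seven-pass cadherins Celsr. Members were every protein-coding row of the deposited count table whose symbol was Cdh or Pcdh with a number, Pcdh11x, Celsr1 to Celsr3, Fat1 to Fat4 or Dchs1 and Dchs2, which gave 44 members among 21885 protein-coding genes and 55416 genes in all. The mice were C57BL/6 wild-type animals, and recombinant adeno-associated virus (AAV) was injected into the PFC on both sides. The Ctr group (3 libraries) received the empty vector, the Ref group (2 libraries) a vector with human PAXIP1-AS1 carrying the reference C allele, and the Alt group (2 libraries) the same long noncoding RNA with the alternative G allele. All 3 vectors carried an EGFP reporter, and reporter and insert were under the human synapsin promoter, which is active in neurons. Glia and vessel cells were therefore in the tissue but were not meant to express the insert. The age of the mice sequenced was not given in the sources used here, and the transgene itself was not analysed. The labels number the replicates but do not say that each library came from its own mouse, so the p-values measure the spread between these libraries only, which may be technical.

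Cadherins are calcium-dependent adhesion proteins that hold cells together through extracellular cadherin repeats. Classical cadherins bind catenins and, through them, actin, and type I and type II members differ in the part of the first repeat that pairs across the junction. Non-clustered delta protocadherins sort neurites and axons, Fat4 and Dchs1 bind each other as receptor and ligand between neighbouring cells, and Celsr proteins are the core adhesion receptors of planar cell polarity, known in the brain for axon tracts, neuronal migration and dendrite growth. Many members mark particular layers, areas or cell types of the cortex.

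Library totals ran from 16655697 (Alt replicate 1) to 20750857 counts (Ctr replicate 3), and the members together held 46921 to 60506 of them. Alt replicate 1 stood apart from the other libraries. With the genes tested split into 5 equal bins by length, the median log2 deviation from the Ctr mean was 0.41 there in the bin of the longest genes and -0.62 in that of the shortest. In Alt replicate 2 it was 0.14 and -0.18, and the 5 Ctr and Ref libraries lay from -0.10 to 0.15. Members are long genes. Their median transcript length in the table was 8904 bases for those tested against 4051 over all genes tested, so the counts of members called in Alt are given with and without a correction for gene length and without Alt replicate 1. Markers of the cortex were present: the summed TPM (transcript abundance, corrected for gene length and scaled to the same total in every library) of 5 excitatory neuron markers was 2340 to 3060 in the 7 libraries, while 5 ependymal and choroid plexus markers summed to 1.55 to 5.3.

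The level of the members, in TPM so that genes of different length can be compared, differed widely. The 8 with the highest mean over the 7 libraries were Pcdh10 at 98.3 TPM, Pcdh1 at 94.2, Celsr2 at 88.8, Pcdh9 at 73.2, Pcdh7 at 72.9, Cdh2 at 57.1, Cdh22 at 47.6 and Pcdh17 at 43.5. Cdh2 encodes N-cadherin, the main classical cadherin of synapses, Cdh22 is a type II cadherin, and the 4 leading protocadherins belong to the delta1 and delta2 groups. The order among the first 3 was not resolved. Pcdh10 ran from 81.7 to 122 TPM in single libraries, Pcdh1 from 76.1 to 114 and Celsr2 from 65.6 to 171. At the other end, Cdh16, a kidney cadherin, had no count in any library. Cdh17, of intestine, had 2 counts in Alt replicate 2 and none elsewhere, and Cdh3, P-cadherin, had 0 to 10 counts per library. These 3 did not pass the filter on low counts and were not tested. The other 41 members were tested among 17254 genes. A set of 25 members is described by library in what follows: those called in a comparison, the 8 above, and Cdh1, Cdh5 and Cdh19. Of the 19 others, with mean levels of 0 to 30.9 TPM, 16 were tested and none was called between any of the groups, with log2 fold changes of Alt over Ctr from -1.90 (Cdh15) to 1.10 (Pcdh12), 13 above 0 and 3 below.

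**Figure D1:**
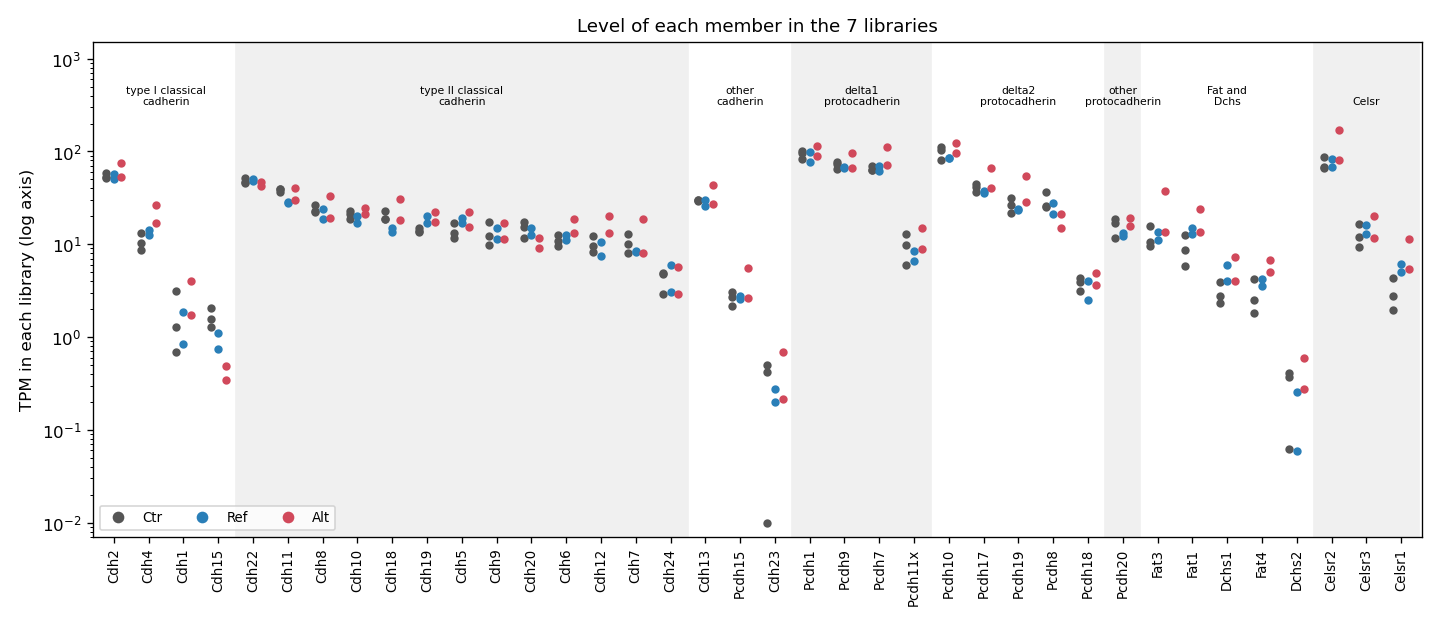
TPM (log axis) of 38 members in each of the 7 libraries, grouped by subfamily and, within it, ordered by mean level; each point is a library, grey for Ctr, blue for Ref and red for Alt. The 6 members with a 0 in at least 1 library (Cdh3, Cdh16, Cdh17, Cdh26, Fat2 and Pcdh12) cannot be drawn on a log axis; the levels run from 0.00985 TPM for Cdh23 in Ctr replicate 1 to 171 TPM for Celsr2 in Alt replicate 1.

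Alt was compared with Ctr to ask how expression of the lncRNA with the alternative allele changed the PFC against the empty vector. Fat1, Fat2, Fat3, Fat4, Dchs1, Celsr1, Celsr2 and Cdh4 were higher in Alt, with a further 7 members, and the protocadherin Pcdh8 was lower. Of the 41 members tested, 15 (36.6%) were called higher at an unadjusted p below 0.05 in edgeR's quasi-likelihood test, against 9.45% of all genes tested, and 1 was called lower, against 10.3%. None of the 41, and none of the 17254 genes, passed a Benjamini-Hochberg adjusted p of 0.05 in edgeR, where the adjusted p of the 16 called members ran from 0.12 to 0.206. Calls in what follows are at the unadjusted threshold, while each p printed is adjusted over all genes tested and, where no tool is named, is edgeR's. With DESeq2's Wald test 8 members passed it, all higher (5.03% of the genes with an adjusted p): Cdh4, Celsr1, Celsr2, Dchs1, Fat1, Fat3, Fat4 and Pcdh19. The median log2 fold change of the members was 0.41, with 35 above 0 and 6 below, where the median over all genes tested was -0.03. Both Alt libraries lay above all 3 Ctr libraries for 15 members (16.8% of all genes) and below them for 3 (18.1%). The 3 were Pcdh8 and, named after their values were seen, Cdh15 and Cdh20.

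Among the 6 Fat and Dchs members, all tested, 5 were called higher in Alt over Ctr, with a median log2 fold change of 1.10. Without Fat2 they were 4 of 5, with a median of 1.08. Fat1, known from radial glia and from actin organisation, had 27.3, 40.5 and 55.6 normalised CPM (read counts relative to the library total, scaled by the trimmed mean of M-values) in the Ctr libraries, 57.1 and 74.9 in Ref, and 107 and 67.6 in Alt. All Alt and Ref libraries were above all Ctr libraries. Fat1 had a log2 fold change in Alt over Ctr of 1.08 (SE 0.27, adjusted p = 0.12).

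Fat3, which shapes the dendrites of retinal amacrine cells, had 60.7, 67.7 and 95.6 CPM in Ctr, 67.5 and 95.3 in Ref, and 229 and 94.1 in Alt. Only Alt replicate 1 was above the other libraries, and Alt replicate 2 lay just under the highest Ctr library. The log2 fold change of Fat3 was 1.11 (SE 0.31, adjusted p = 0.124), and without Alt replicate 1 it was 0.33 (SE 0.25, adjusted p = 0.717).

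Fat4, the large receptor of the pair, had 9.18, 12.8 and 20.1 CPM in Ctr, 17.2 and 23.5 in Ref, and 33.6 and 27.7 in Alt. Both Alt libraries were above the 5 others. Its log2 fold change in Alt over Ctr was 1.12 (SE 0.30, adjusted p = 0.121).

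Dchs1, the ligand that Fat4 binds, had 9.08, 7.62 and 12 CPM in Ctr, 18.5 and 14.3 in Ref, and 22.9 and 14.3 in Alt. Every Ref and Alt library was above every Ctr library, and Ref and Alt overlapped. The log2 fold change of Dchs1 in Alt over Ctr was 0.96 (SE 0.28, adjusted p = 0.127).

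Fat2, best known from cerebellar granule cells, was at the edge of detection. It was the only one of the 41 members to pass the filter on low counts through the libraries of 1 group alone, those of Alt, so that it had to differ, and it is no support for the counts. Without it 14 of 40 members were called higher and 1 lower in Alt over Ctr, with a median of 0.40, and 8 of 40 were called higher in Alt over Ref. Fat2 is also among the members counted without overlap above and with the gene length correction below, and is no support for those counts either. It had 0, 0 and 2 counts in Ctr, 0 and 0 in Ref, and 20 and 13 in Alt. The ratio of the Alt to the Ctr counts, scaled by library size, was 30.7, with an exact conditional 95% interval of 7.85 to 264 for counting error only (edgeR adjusted p = 0.18). Over Ref, where both libraries were at 0, the level in Alt was at least 6.75-fold higher, taking 3 counts per library as the floor. The sixth member, Dchs2, had 4 to 28 counts per library and was not called. Cdh23, the cadherin of hair cell tip links that shares this large size, had 1 to 51 counts and was not called either; both were named after their values were seen.

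Exons of several of these genes are shared with transcripts on the opposite strand in the GENCODE annotation of GRCm38: Fat4 with C230034O21Rik over 1209 bases, Dchs1 with Gm15645 over 648 bases and Fat1 with Gm2366 over 487 bases. Of the members described further on, Pcdh7 shares 2235 bases with 4932441J04Rik, Pcdh8 436 with Gm9748, Pcdh10 154 with 1700027H10Rik and Pcdh19 57 with Gm26851. The library kit marked the second strand, but whether the counting used strand was not given in the sources used here, so reads from either partner may have entered these counts.

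The median of the 3 Celsr receptors was 0.81, and 2 of them were called higher. Celsr1 had 9.52, 6.84 and 14 CPM in Ctr, 20.2 and 18.9 in Ref, and 38.3 and 20.2 in Alt. All Ref and Alt libraries were above all Ctr libraries, and Alt replicate 2 was level with Ref replicate 1. The log2 fold change of Celsr1 in Alt over Ctr, 1.53 (SE 0.32, adjusted p = 0.12), was the largest of the 15 higher members apart from Fat2.

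Celsr2, the member of the trio with the highest level here, had 234, 225 and 278 CPM in Ctr, 267 and 252 in Ref, and 564 and 297 in Alt. Alt replicate 1 was far above the rest and Alt replicate 2 just above the highest Ctr library. Its log2 fold change was 0.81 (SE 0.22, adjusted p = 0.124), and 0.27 (SE 0.17, adjusted p = 0.693) without Alt replicate 1. Celsr3, needed for major forebrain axon tracts and named after its values were seen, was not called, with 33.5 to 56.2 CPM in Ctr and 70.7 and 44.7 in Alt.

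**Figure D2:**
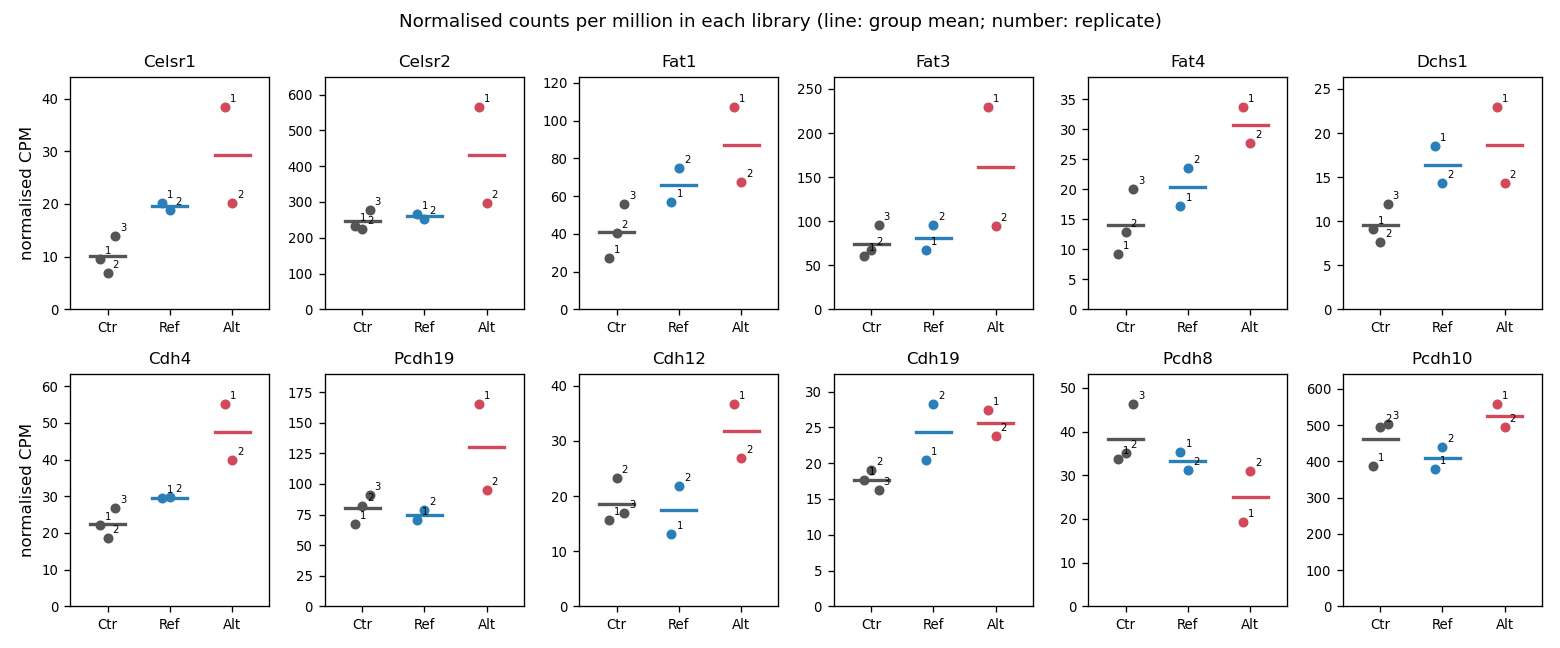
Normalised CPM of 12 members in each library, on linear axes from 0; points are libraries with their replicate number, and the line is the group mean. Alt replicate 1 is the highest library for 10 of the 12, among them Celsr1 at 38.3 and Fat3 at 229 CPM. For Fat4, Cdh4, Celsr2, Pcdh19 and Cdh12 both Alt libraries lie above all others, and for Pcdh8 both lie below.

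Among the type I classical cadherins, Cdh4 was called. This gene encodes R-cadherin, which takes part in axon outgrowth and brain compartment boundaries. It had 22.1, 18.6 and 26.9 CPM in Ctr, 29.4 and 29.9 in Ref, and 55 and 39.8 in Alt. The 3 groups did not overlap, and both Alt libraries were the highest. In Alt over Ctr, Cdh4 had a log2 fold change of 1.07 (SE 0.21, adjusted p = 0.12) and the smallest unadjusted p of all members.

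Cdh2, the abundant N-cadherin, had 124, 128 and 132 CPM in Ctr, 131 and 130 in Ref, and 176 and 136 in Alt. Alt replicate 2 lay just above the highest Ctr library, and the difference in Alt over Ctr did not pass the test. Cdh1, E-cadherin of epithelia, was low throughout, with 0.935 to 3.99 CPM in Ctr, 2.42 and 1.24 in Ref and 2.27 and 5.91 in Alt, and the groups overlapped.

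Of the 13 type II cadherins, 3 were called higher in Alt over Ctr and none lower, with a median log2 fold change of 0.18. Cdh12 had 15.6, 23.2 and 16.9 CPM in Ctr, 13.1 and 21.9 in Ref, and 36.6 and 26.9 in Alt, with both Alt libraries above the 5 others (log2 fold change 0.77, SE 0.27, adjusted p = 0.158). Cdh6, a marker of cortical areas in development, had 26 to 33.8 CPM in Ctr and 48.6 and 38.3 in Alt, again without overlap (0.58, SE 0.20, adjusted p = 0.162). Cdh19, known from the oligodendrocyte lineage and Schwann cells, had 17.7, 19 and 16.3 CPM in Ctr, 20.4 and 28.2 in Ref, and 27.4 and 23.8 in Alt. Ref and Alt were both above Ctr and overlapped each other, and the Alt over Ctr log2 fold change of Cdh19 was 0.53 (SE 0.21, adjusted p = 0.192). Without Alt replicate 1 none of these 3 was called, at 0.54 (SE 0.30) for Cdh12, 0.40 (SE 0.23) for Cdh6 and 0.43 (SE 0.25) for Cdh19. Cdh12 shares 198 exonic bases with the transcript Gm49685 on the same strand.

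Cdh5, VE-cadherin of endothelium, had 14.8, 16.6 and 19.8 CPM in Ctr, 22.9 and 23.1 in Ref, and 18.4 and 30.2 in Alt. The Ref libraries lay between those of Alt, Alt replicate 1 lay within the range of Ctr, and Cdh5 was not called. The 5 endothelial markers, of which 1 was called higher in Alt over Ctr, summed to 193 to 251 TPM in Ctr, 227 to 270 in Ref, and 164 and 275 in Alt replicates 1 and 2; their part in the value of Cdh5 was not tested. Cdh22 differed by less than the spread between libraries, with 50.9 to 53.1 CPM in Ctr and 45.5 and 55.7 in Alt. In whole tissue, fewer cells of a type and less RNA per cell cannot be told apart.

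In the delta1 protocadherin group 1 of 4 members was called, Pcdh7, which had 200, 221 and 189 CPM in Ctr, 183 and 240 in Ref, and 338 and 243 in Alt. Alt replicate 2 lay just above the highest Ref library. For Pcdh7 the log2 fold change was 0.51 (SE 0.18, adjusted p = 0.161), and 0.26 (SE 0.18) without Alt replicate 1. Pcdh1 (218 to 253 CPM in Ctr, 288 and 255 in Alt) and Pcdh9 (131 to 157 in Ctr, 186 and 145 in Alt) were not called.

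In the delta2 group, Pcdh19 and Pcdh17 were higher and Pcdh8 was lower. Pcdh19, on the X chromosome and the gene of an epilepsy of girls, had 67.3, 81.8 and 91.3 CPM in Ctr, 70.9 and 78.6 in Ref, and 165 and 94.7 in Alt. Both Alt libraries were above the rest, replicate 2 by a small margin, and the log2 fold change of Pcdh19 was 0.69 (SE 0.22, adjusted p = 0.137). Without Alt replicate 1 it was 0.24 (SE 0.20). Pcdh17, found at corticostriatal synapses, had 142 to 163 CPM in Ctr, 139 and 150 in Ref, and 250 and 169 in Alt (0.44, SE 0.18, adjusted p = 0.202; 0.13, SE 0.17, without Alt replicate 1).

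Pcdh8, or arcadlin, an activity-induced protocadherin that drives N-cadherin into the cell, had 33.7, 35.2 and 46.2 CPM in Ctr, 35.3 and 31.3 in Ref, and 19.2 and 30.9 in Alt. Both Alt libraries were the lowest, replicate 2 just under the lowest Ref library. Its log2 fold change in Alt over Ctr was -0.61 (SE 0.23, adjusted p = 0.183), and -0.31 (SE 0.24) without Alt replicate 1. Pcdh10, the member with the highest TPM, had 386 to 502 CPM in Ctr, 379 and 440 in Ref, and 557 and 495 in Alt, and was not called.

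The last member called higher in Alt over Ctr was Pcdh15, a tip-link cadherin that is also expressed in oligodendrocyte precursors. It had 15.2 to 20.4 CPM in Ctr, 17.2 and 21.1 in Ref, and 37.4 and 20.1 in Alt, so only Alt replicate 1 was outside the range of the others (0.65, SE 0.27, adjusted p = 0.206; 0.13, SE 0.26, without it). The 3 oligodendrocyte precursor markers, of which 2 were called higher in Alt over Ctr, summed to 54.8 to 77 TPM in Ctr, 78.6 to 86.3 in Ref, and 96.9 and 73.3 in Alt replicates 1 and 2; their part in this result was not tested.

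Each subfamily was also read library by library, as the median log2 deviation of its tested members from their Ctr means. For Fat and Dchs this was -0.53, -0.08 and 0.54 in Ctr, 0.28 and 0.49 in Ref, and 1.42 and 0.69 in Alt. Without Fat2, it was 1.40 and 0.61 in Alt against 0.49 in the highest Ctr library and 0.60 in the highest Ref library. For Celsr it was 1.20 in Alt replicate 1 and 0.28 in replicate 2, where Ctr replicate 3 had 0.38. For the 13 type II cadherins it was 0.40 and 0.10 in Alt, against 0.11 in Ctr replicate 2. With the gene length correction the Alt medians were 0.81 and 0.44 for Fat and Dchs without Fat2 (highest Ctr library 0.39, highest Ref library 0.48), 0.75 and 0.10 for Celsr (0.30) and 0.31 and 0.0046 for type II (0.13).

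**Figure D3:**
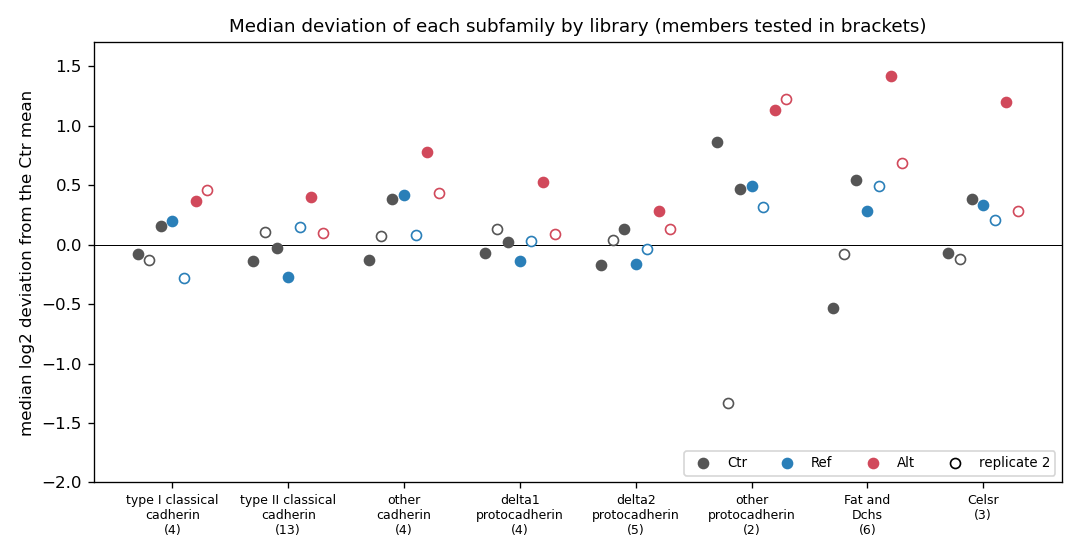
Median log2 deviation of each subfamily's tested members from the mean of the Ctr libraries, by library; grey is Ctr, blue Ref and red Alt, open points are replicate 2, and the number of members tested is in brackets. Alt replicate 1 is above all Ctr and Ref libraries in each of the 8 subfamilies, Alt replicate 2 is higher still for type I (0.46) and other protocadherins (1.22), and the highest value is 1.42, for Fat and Dchs.

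A correction for gene length, in which each library's trend of expression on transcript length was taken out before the test, lowered most values. The median log2 fold change of the members in Alt over Ctr became 0.22, with 12 members called higher (7.29% of all genes) and 2 lower (8.83%). Fat1, Fat2, Fat3, Fat4, Dchs1, Celsr1, Celsr2, Cdh4, Cdh12, Cdh19 and Pcdh19 were still called higher and Pcdh8 lower. Cdh5 (0.59, SE 0.22) was then called higher and Cdh11 (-0.32, SE 0.14) lower. The log2 fold changes were then 0.63 for Fat1, 0.46 for Fat3, 0.66 for Fat4, 0.64 for Dchs1, 0.45 for Celsr2, 1.18 for Celsr1 and 0.93 for Cdh4. Pcdh7, Pcdh17, Cdh6 and Pcdh15 were no longer called, at 0.22, 0.04, 0.36 and -0.01.

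**Figure D4:**
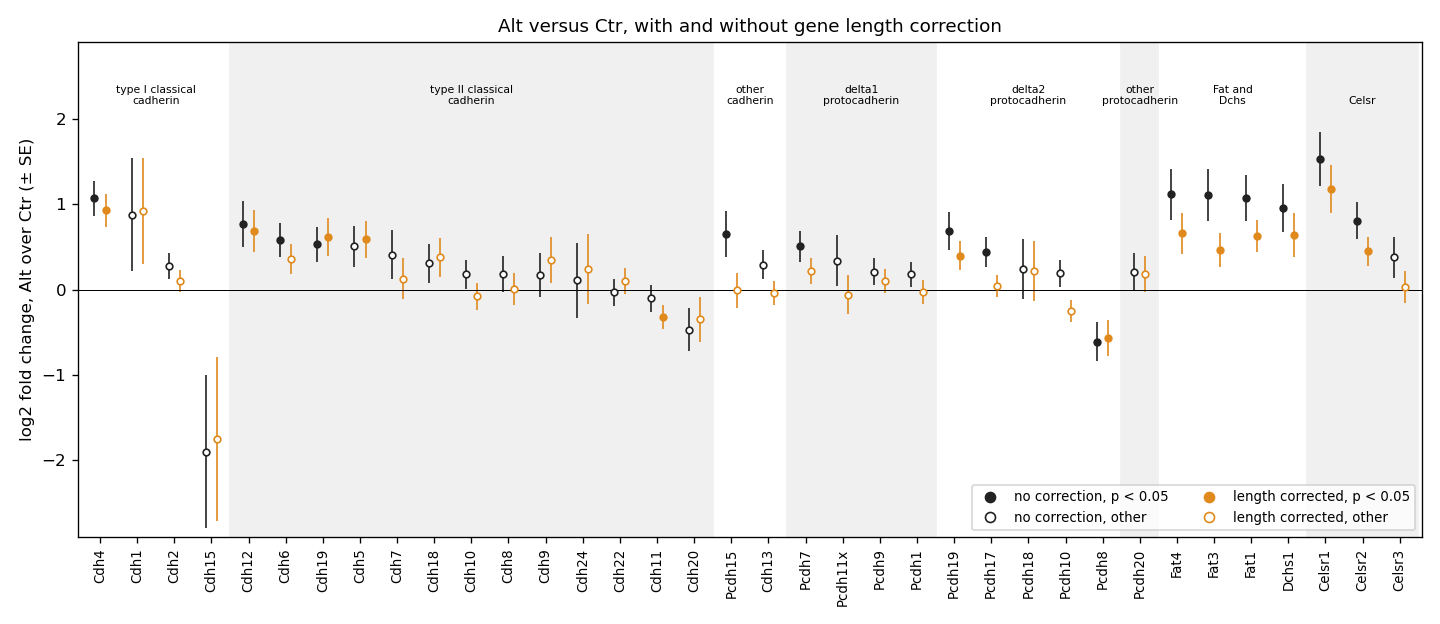
Log2 fold change of Alt over Ctr with its standard error for 36 members, grouped by subfamily, without (black) and with (orange) the gene length correction; filled points have an unadjusted p below 0.05 in edgeR. The 5 members with a standard error of 1 or more (Fat2, Pcdh12, Dchs2, Cdh23 and Cdh26) are left out; the 4 Fat and Dchs members shown, Celsr1, Celsr2 and Cdh4 stay above 0 with both and Pcdh15 falls to 0 with the correction.

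Without Alt replicate 1, 6 members were called higher in Alt over Ctr (3.68% of all genes) and none lower (4.46%). These were Celsr1 (0.99, SE 0.32), Fat4 (0.98, SE 0.33), Cdh4 (0.82, SE 0.23), Fat1 (0.72, SE 0.28), Cdh5 (0.83, SE 0.24) and Cdh1 (1.40, SE 0.66). Of the 16 members called with all libraries, 4 thus kept their call. Dchs1, at 0.58 (SE 0.30, adjusted p = 0.636), and Pcdh8, at -0.31 (SE 0.24, adjusted p = 0.724), kept their direction. The median of the members was 0.13. Without Alt replicate 2, where the only Alt library was replicate 1, 22 members were called, 21 higher and 1 lower, 16 of them at an adjusted p below 0.05 in edgeR, and the median was 0.61. In that fit 14.3% of all genes were called higher and 18.9% lower, and 18.3% passed the adjusted threshold. With an arm of 1 library, that library is taken to vary like those of the other groups. Leaving out any library other than Alt replicate 1 in turn, 9 of the 16 calls were kept throughout, those of Fat1, Fat3, Fat4, Dchs1, Celsr1, Celsr2, Cdh4, Cdh12 and Pcdh19. The other 7 were lost at least once: Cdh6, Cdh19, Fat2, Pcdh15 and Pcdh17 without Ctr replicate 1, Pcdh15 without Ctr replicate 2, Cdh19, Pcdh7, Pcdh8 and Pcdh17 without Ctr replicate 3, and Fat2 without either Ref library.

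The region upstream of the start is shown for 4 members that were called, because the study was concerned with ZGPAT, a zinc-finger repressor known to recognise GGAG-rich sequences in promoters. The RefSeq windows (GRCm38.p6, 250 bases before to 50 after a start) covered 29 of the 44 members, with no entry for Celsr1, Dchs1 and Cdh4 among others. They were searched on both strands for GGAGGAGA, GGAGGAAA, GGAGAAGA and GGAGAAAA (matches may overlap in part). At least 1 match was found in 9 of 32 member windows (28.1%), against 3921 of all 32841 windows (11.9%), and in 7 of the 13 members with a window that were called in any comparison. These were Fat3, Fat4, Pcdh19, Pcdh8, Cdh12, Cdh18 and Pcdh7. The windows of Fat1, Fat2, Celsr2, Pcdh17, Cdh6 and Pcdh15 held none of these letters. A window marks a RefSeq start, which need not be the first start of the gene. Those of Cdh12 and Cdh18 begin at 21111202 and 23036213 on chromosome 15. Both positions lie within the spans of these genes in the deposited table, whose build was not given. Member windows also held more CpG pairs, with a median of 18 against 7 over all windows. A match is a description of the sequence and not a binding site. Below, the 250 bases before the start are printed 5′ to 3′ on the strand of the gene, with each match, on either strand, in capitals.

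Fat3, minus strand, chr9:16502055-16502304, which holds GGAGGAGA on the gene's strand:
Fat3: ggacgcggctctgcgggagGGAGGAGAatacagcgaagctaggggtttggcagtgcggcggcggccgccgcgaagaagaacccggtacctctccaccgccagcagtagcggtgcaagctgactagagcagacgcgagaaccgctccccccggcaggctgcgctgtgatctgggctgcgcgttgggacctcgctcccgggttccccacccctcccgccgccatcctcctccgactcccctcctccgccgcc
Fat4, plus strand, chr3:38886690-38886939, which holds GGAGAAGA on the opposite strand close to the start:
Fat4: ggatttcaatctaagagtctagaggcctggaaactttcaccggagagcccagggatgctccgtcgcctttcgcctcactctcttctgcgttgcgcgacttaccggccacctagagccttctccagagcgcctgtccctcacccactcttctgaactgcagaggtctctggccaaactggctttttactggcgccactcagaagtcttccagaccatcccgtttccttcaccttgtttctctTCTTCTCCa
Pcdh19, minus strand, chrX:133688994-133689243, which holds GGAGGAGA on the opposite strand:
Pcdh19: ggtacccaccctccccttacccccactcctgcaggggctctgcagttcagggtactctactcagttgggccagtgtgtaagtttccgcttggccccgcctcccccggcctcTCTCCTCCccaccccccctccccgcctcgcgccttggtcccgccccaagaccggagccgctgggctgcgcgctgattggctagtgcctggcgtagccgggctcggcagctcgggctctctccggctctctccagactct
Pcdh8, minus strand, chr14:79771313-79771562, the member that was lower in Alt, which holds GGAGAAAA on the opposite strand:
Pcdh8: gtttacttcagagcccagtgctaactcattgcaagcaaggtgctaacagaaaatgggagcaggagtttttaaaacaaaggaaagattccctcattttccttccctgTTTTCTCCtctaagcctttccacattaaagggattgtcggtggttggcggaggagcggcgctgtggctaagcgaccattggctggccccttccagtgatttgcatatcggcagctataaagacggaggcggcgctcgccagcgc

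The match was thus found upstream of members called higher and of the member called lower. In the deposited table, whose coordinates are of a build not given in the sources used here, the 4 genes lie at chromosome 9, 15821485 to 16412581 (Fat3), chromosome 3, 38941089 to 39066134 (Fat4), chromosome X, 132483609 to 132589736 (Pcdh19), and chromosome 14, 80004215 to 80008752 (Pcdh8). By the same table Celsr1 lies on chromosome 15, 85783130 to 85918404, Dchs1 on chromosome 7, 105402197 to 105436861, and Cdh4 on chromosome 2, 179084224 to 179541166.

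Alt was compared with Ref to ask what distinguished the alleles. Both comparisons of Alt use the same 2 Alt libraries and are not independent of each other. Of the 41 members, 9 were called higher in Alt over Ref (6.71% of all genes) and none lower (8.83%), and the median log2 fold change was 0.40, or 0.40 with Fat2 at its lower bound, against -0.04 over all genes. Pcdh19 (0.79, SE 0.24, adjusted p = 0.236), Cdh12 (0.86, SE 0.30, adjusted p = 0.243), Cdh4 (0.68, SE 0.23, adjusted p = 0.241), Celsr2 (0.73, SE 0.25, adjusted p = 0.241) and Fat3 (0.99, SE 0.35, adjusted p = 0.244) were among them, with Fat2, Pcdh17 and Pcdh7. Fat3 was called although Alt replicate 2, at 94.1 CPM, lay below Ref replicate 2, at 95.3.

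The ninth was Cdh18, a type II cadherin of the nervous system. It had 25.6, 30.9 and 23.7 CPM in Ctr, 17.2 and 21.8 in Ref, and 39.8 and 26.6 in Alt. The Ref libraries were the lowest of all, and Alt overlapped Ctr (log2 fold change of Alt over Ref 0.77, SE 0.25, adjusted p = 0.236). Celsr1, Fat1 and Dchs1 were not called between the alleles, and their Alt and Ref libraries overlapped. No member passed the adjusted threshold in edgeR, where the adjusted p of the 9 ran from 0.236 to 0.31, and 1, Pcdh19, passed it with DESeq2 (2.16% of the genes with an adjusted p). The only gene of the 17254 to pass it in edgeR was the oligodendrocyte marker Mbp (-1.29, SE 0.16, adjusted p = 0.0481), and 6 of the 7 oligodendrocyte markers were called lower in Alt over Ref, with a median log2 fold change of -0.83 over the 7. Their part in the members' values was not tested.

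This comparison depended on Alt replicate 1 and on Ref replicate 1. Without Alt replicate 1 the only member called higher in Alt over Ref was Cdh1 (2.35% of all genes), none of the 9 kept its call, and the median was 0.20. Without Ref replicate 1, Celsr2 (0.76, SE 0.32) and Pcdh19 (0.71, SE 0.31) were called (1.3% of all genes). Without Ref replicate 2, 10 members were called higher (5.09% of all genes), while Celsr2 (0.69, SE 0.32) and Fat2 lost their call, and Pcdh7 (0.46) lost its call without any of the 3 Ctr libraries, which enter through the shared spread and whose omission left 9, 8 and 8 members called higher for Ctr replicates 1, 2 and 3 (6.15%, 6.51% and 5.62% of all genes). Pcdh19 was the only one of the 9 to keep its call in all of these but the first. Without Alt replicate 2, on the other hand, 22 members were called, 21 higher and 1 lower, 11 of them at an adjusted p below 0.05 in edgeR (11.6% of all genes called higher and 17.3% lower, and 14.4% past the adjusted threshold). With the length correction 7 members were called higher (8.3% of all genes) and none lower, 6 of them among the 9 (Cdh12, Cdh18, Cdh4, Celsr2, Fat2 and Pcdh19). That correction turned the balance over all genes, from 1157 higher and 1523 lower to 1432 higher and 833 lower, and the median over all genes from -0.04 to 0.08, where that of the members became 0.24.

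Ref was compared with Ctr to ask what the reference allele did against the empty vector. Of the 41 members, 4 were called higher (2.19% of all genes) and 1 lower (0.945%), none at an adjusted p below 0.05 in edgeR (adjusted p = 1 for all 5) or DESeq2, and the median log2 fold change was -0.06, against 0.01 over all genes. Celsr1 (0.95, SE 0.32, adjusted p = 1), Dchs1 (0.77, SE 0.28, adjusted p = 1) and Fat1 (0.68, SE 0.28, adjusted p = 1) were higher in Ref, with both Ref libraries above all Ctr libraries for each. These values do not involve the Alt libraries, apart from the shared estimate of spread. Without Ctr replicate 1, 2 members were called, Celsr1 and Dchs1 (2.06% of all genes), and without Ctr replicate 2 Celsr1 and Cdh11 (2.73%). Without Ref replicate 1 they were Celsr1, Fat1 and Cdh19 (1.49%), and without Ref replicate 2 Celsr1, Dchs1 and Cdh11 (1.25%). Cdh19 also lost its call without Ctr replicate 3. Celsr1 alone kept its call in all of these. With the length correction 3 members were called higher (1.66% of all genes) and 2 lower (4.23%), and with a correction for GC content 2 higher (0.999%) and 2 lower (2.64%). Fat1 and Dchs1 lost their calls with the correction for GC content. Both corrections turned the balance over all genes, from 378 higher and 163 lower to 287 and 729 with length and 172 and 454 with GC content, and took the median over all genes to -0.09 and -0.10, where that of the members was -0.13 with either.

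Cdh19 was also higher in Ref over Ctr (0.46, SE 0.21, adjusted p = 1), and it did not keep its call with the length correction. The 7 oligodendrocyte markers summed to 2410 to 2630 TPM in Ref, 1430 to 1940 in Ctr and 1250 to 1760 in Alt, and 6 of the 7 were called higher in Ref over Ctr. In Alt over Ctr 2 of them, Mag (-0.38, SE 0.15) and Mbp (-0.51, SE 0.14), were called lower. The part of these cells in the value of Cdh19 was not tested.

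Cdh11, a type II cadherin also known from mesenchyme, was lower in Ref. It had 105, 98.3 and 98.1 CPM in Ctr, 69.1 and 81.7 in Ref, and 103 and 84.7 in Alt. Both Ref libraries were the lowest, and the log2 fold change of Ref over Ctr was -0.41 (SE 0.16, adjusted p = 1).

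An ordered score of 0 for Ctr, 1 for Ref and 2 for Alt was tested as well, since the study ordered its groups in this way. With edgeR 15 members were called as rising along the score (8.85% of all genes) and 2 as falling (7.89%), Pcdh8 and, outside the naming rule, Cdh15. Without Fat2, 14 of 40 members were called as rising and 2 as falling. A call on the score does not require a step from Ctr to Ref. Among the 15, the log2 fold change of Ref over Ctr was 0.95 for Celsr1 and 0.77 for Dchs1, but -0.10 for Pcdh19 and -0.08 for Cdh12. The score uses the same libraries as the comparisons of 2 groups and is not independent of them. No member passed the adjusted threshold in edgeR, where the smallest adjusted p was 0.166. With DESeq2 on protein-coding genes and the same score, 6 of 33 members with an adjusted p rose at an adjusted p below 0.05 (3.47% of such genes): Celsr1 (adjusted p = 0.0032), Cdh4 (0.00408), Fat1 (0.0106), Fat4 (0.0182), Dchs1 (0.0347) and Celsr2 (0.0369). Cdh4 and Celsr1 had the largest steps relative to their error, 0.53 (SE 0.10) and 0.78 (SE 0.16) per unit of score in edgeR. With the length correction 11 members were called as rising (6.46% of all genes) and 1 as falling (7.74%), and without Alt replicate 1, 7 as rising (3.72%) and none as falling (3.41%).

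The partners of these proteins were read from fixed lists in Alt over Ctr, where 9.45% of all genes were called higher and 10.3% lower. Of 16 catenins and adherens junction partners, 2 were called higher and 2 lower. With the length correction these were 0 higher and 2 lower, the same as without Alt replicate 1, and with the GC correction 5 higher and 1 lower. Nectin2 (-1.27, SE 0.45) and the p120-family catenin Arvcf (-0.75, SE 0.24) were lower, also with the length correction (-1.12 and -0.86) and without Alt replicate 1 (-1.20 and -0.77). Nectin3, an immunoglobulin-type adhesion protein, was higher (0.55, SE 0.22), but was not called with the length correction (0.20, SE 0.18) or without Alt replicate 1 (0.42, SE 0.25). The beta-catenin gene Ctnnb1, chosen after its values were seen, had 216 to 244 TPM in Ctr and 240 and 210 in Alt and was not called.

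Of 10 planar polarity partners of Celsr, 3 were called higher and none lower. These were the Wnt receptor gene Fzd3 (0.79, SE 0.23), Prickle2 (0.59, SE 0.18) and Vangl2 (0.57, SE 0.22). With the length correction Fzd3 (0.41, SE 0.16) and Prickle2 (0.38, SE 0.14) were called, and without Alt replicate 1 none was, at 0.40, 0.33 and 0.55 for Fzd3, Prickle2 and Vangl2. Of 5 Fat and Dchs partners 1 was called lower, Fjx1, the relative of the kinase Four-jointed that phosphorylates Fat and Dchs repeats (-0.51, SE 0.19). It was not called with the length correction (-0.33, SE 0.16), the GC correction (-0.26, SE 0.17) or without Alt replicate 1 (-0.31, SE 0.21). Of 8 other cadherin superfamily genes tested, Clstn2, a synaptic calsyntenin, was called higher (0.64, SE 0.21), and with the length correction as well (0.59, SE 0.19), but not without Alt replicate 1 (0.16, SE 0.18). With the length correction 1 other gene of these 8 was called lower.

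Markers of other cells also differed between the groups, and their part in the members' values was not tested. Of the 6 inhibitory neuron markers 3 were called lower in Alt over Ctr, and they summed to 237 to 274 TPM in Alt, 363 to 437 in Ref and 411 to 504 in Ctr. Most of this sum was Sst, with 218 to 351 TPM in Ctr and 86.6 and 145 in Alt, called lower with Pvalb and Vip. With the length correction 2 of the 6 were called lower, and without Alt replicate 1 only 1, Sst. The markers of inhibitory neurons in general, Gad1 (-0.35, SE 0.23), Gad2 (0.16, SE 0.19) and Slc32a1 (-0.01, SE 0.20), were not called. Of the 5 meningeal fibroblast markers 1 was called higher, and they summed to 36.1 to 39.7 TPM in Alt, 24 to 29.2 in Ref and 28.6 to 29.8 in Ctr, and the 4 mural cell markers, none called, to 257 to 262, 224 to 242 and 222 to 252. Of 5 astrocyte markers none was called in Alt over Ctr, of 5 microglial markers 1 higher and 1 lower, and of 5 excitatory neuron markers 2 higher and 1 lower. The 5 markers of neurons in general, the cells in which the vector's promoter is active, summed to 2300 to 2310 TPM in Alt, 2190 to 2290 in Ref and 2450 to 2690 in Ctr, so that Alt and Ref lay below Ctr. Of these 5 markers 1, Tubb3, was called lower in Alt over Ctr (-0.38, SE 0.17), and it was not called with the length correction (-0.07) or without Alt replicate 1 (-0.17). Of 5 striatal neuron markers, which summed to 38.5 to 47.3 TPM in Alt and 42 to 54.8 in Ctr, none was called. Without Alt replicate 1, 8 of the 15 cell type markers called in Alt over Ctr kept their calls: Camk2a, Sst, Mbp, Cspg4, C1qa, Cx3cr1, Flt1 and Col1a1.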

How the data were processed

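RNA of the PFC was sequenced in 7 libraries (Ctr 3, Ref 2, Alt 2) with a poly(A)-selecting TruSeq kit. By the submitters' processing notes, reads were aligned with STAR and counted per gene with featureCounts; versions, strand setting and annotation were not given in the sources used here, and the notes name hg19 although the genes are of mouse. The authors deposited raw read counts, TPM, FPKM and gene lengths per gene and library. FPKM were not used.

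Counts were tested with edgeR 4.0.16 (R 4.3.3): filterByExpr, TMM scaling, 1 fit over the 3 groups with glmQLFit and glmQLFTest, and Benjamini-Hochberg adjustment over all 17254 genes tested. A member was called at an unadjusted p below 0.05. The SE was the log2 fold change divided by the square root of F. DESeq2 1.42.0, DESeq2 size factors, no filter, loess offsets on length or GC content (span 0.3), the replicate number as a block, 2-group fits and the omission of each library were alternatives. The fits were tested on simulated counts. Replicates of a group differed by more than sampling noise. Library totals of 16655697 to 20750857 set the counting precision, and intervals cover counting error only.

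Members and lists were chosen with earlier results of these data known. Described by library were the members called in a comparison of 2 groups, the 8 with the highest mean TPM, and Cdh1, Cdh5 and Cdh19. Of the partner genes, fold changes are given for the 8 with the largest change among those called in Alt over Ctr. Promoter sequences are from RefSeq (GRCm38.p6), and overlaps from GENCODE on GRCm38.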

Additional observations from a re-analysis of the deposited data

How the results depend on the processing

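Over the omissions of single libraries, the number of members called in Alt over Ctr ran from 6 to 22 and their median log2 fold change from 0.13 to 0.61, in Alt over Ref from 1 to 22 and from 0.20 to 0.58, in Ref over Ctr from 2 to 7, and along the ordered score from 7 to 17. The share of all genes called in the same fits ran from 8.14% to 33.2%, 4.19% to 28.9%, 1.25% to 5.52% and 7.14% to 20%. With the length correction the median in Alt over Ctr was 0.22. A further setting was chosen after seeing the data, the length correction with 1 of the Alt libraries left out. Without Alt replicate 1 it gave 6 members called (7.18% of all genes) and a median of 0.0039 in Alt over Ctr, 1 (6.17%) and 0.12 in Alt over Ref, and 6 (7.17%) along the score. Without Alt replicate 2 it gave 12 members called (26.9% of all genes) and a median of 0.23 in Alt over Ctr, 10 (22.9%) in Alt over Ref, and 11 members (18.9% of all genes) along the score. The log2 fold change of Pcdh15 in Alt over Ctr turned to -0.01 with the length correction and to -0.0036 with length correction and replicate block.

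Of 9 members called in Alt over Ref, the number rose to 14 with no filter on low counts (3 at an adjusted p below 0.05 in edgeR, against 3.16% of all genes; 4.77% of all genes were called higher) and to 16 with a GC correction, all higher. That correction took all genes in Alt over Ref from 1157 higher and 1523 lower to 2221 and 744, and their median from -0.04 to 0.14. In Alt over Ctr the GC correction gave 18 higher and none lower, among 2083 higher and 1481 lower over all genes, and the calls of Cdh19 (0.25, adjusted p = 0.508) and Pcdh8 (-0.38, adjusted p = 0.279) in edgeR were lost. Without the filter 9 members passed an adjusted p of 0.05 in edgeR in Alt over Ctr (5.52% of all genes) and 9 along the score (4.22%).

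Whether the replicate numbers pair the samples was not known. Correlations between the deviations of same-numbered libraries from their group means ran from -0.07 to 0.05, and replicate 3 exists in Ctr alone. In a group of 2 libraries the deviations mirror each other, so these correlations cannot settle the question. With the number as a block 8 members were called in Alt over Ctr, 6 in Alt over Ref, 5 in Ref over Ctr and 10 along the score, where 12.6%, 9.01%, 2.49% and 12.8% of all genes were called. With block and length correction 5 (10.1% of all genes) were called in Alt over Ref, and the median in Alt over Ctr was 0.20. The causes of these shifts were not tested. At 2 or 3 libraries per group and few counts, Fat2, Dchs2 and Cdh23 give no precise fold change.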
